A study of Mus musculus with 6 samples.

Results

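The TRIM family, protein-coding genes whose symbol is Trim followed by a number and at most 1 letter from a to e, held 68 of the 41325 gene rows measured in each library. The members lie on 15 chromosomes, 16 of them on chromosome 7. There, 10 members form a single cluster of 289 kb (chr7:104218793-104507849, GRCm38), in which neighbouring members lie less than 500 kb apart. The other 58 members, including Trim10 and Trim58 of red cell precursors and 6 further members on chromosome 7, are set beside it as the rest of the family. TRIM genes of other symbols, such as Pml, were not counted.

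Bulk RNA-seq libraries from 2 groups of female ICR mice, an outbred stock, were compared, with 3 libraries in each group. All mice were 10 weeks old when bought and had 7 days of habituation, and all were injected with 5-fluorouracil (5-FU), an antimetabolite that blocks thymidylate synthesis, at 20 mg/kg per day 2 times a week over 3 weeks. The elemental diet group was also given 1.6 kcal per day of a liquid formula of free amino acids by mouth in 0.8 mL, split into 2 doses a day on 5 days of the week. The saline group was given the same volume of saline. No library came from an animal without 5-FU. Nothing in the labels ties a library to its own animal, and the p-values below thus rest on library-to-library spread, which may be technical.

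TRIM proteins share a RING domain that recruits an E2 enzyme and makes most of them ubiquitin ligases, 1 or 2 B-box domains and a coiled coil through which they pair. The C-terminal domain differs and binds the substrate, most often a PRY-SPRY domain, which in the restriction factor TRIM5 of primates recognises the capsid of retroviruses. Many members tune innate immune signalling, and several are themselves induced by interferon. Others repress transcription, act on microtubules or serve the last steps of red cell formation.

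The libraries held 29053287 to 33073125 reads assigned to genes, of which 59280 to 65307 fell on TRIM genes with elemental diet and 71572 to 77429 with saline. The limit that a count of 0 allows, 3 reads, was 0.0907 to 0.103 CPM (counts per 1e6 reads), for counting error alone. The libraries are labelled salivary gland, while the extraction protocol speaks of fibroblasts or keratinocytes as the source of RNA. Of 15 gland markers, 5 (Smgc, Pip, Bpifa1, Prb1 and Dcpp1) had no read in any library, and the water channel gene Aqp5 had 4 reads in all with elemental diet and 2 with saline; of the 6 gland markers tested, 3 were lower and 3 not called. Hemoglobin genes took 3.35% to 3.57% of reads with elemental diet and 0.299% to 0.484% with saline, and immunoglobulin genes took 0.336% to 0.408% with elemental diet and 3.16% to 3.53% with saline. Introns held 8.39% to 8.82% of reads with elemental diet and 13.7% to 14.4% with saline. In bulk RNA, fewer cells of a type and less RNA per cell cannot be told apart.

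With elemental diet, most of the tested TRIM genes were lower, the chromosome 7 cluster nearly as a whole, while a smaller set that included Trim10, Trim58 and Trim37 was higher. Of the 68 members, 51 had enough reads to be tested, 45 of them in both groups and 6 through 1 group only (Trim38 with elemental diet, and Trim12a, Trim43b, Trim63, Trim69 and Trim71 with saline). Among the 51, edgeR's quasi-likelihood test called 12 higher (23.5%) and 29 lower (56.9%) at a Benjamini-Hochberg adjusted p under 0.05, and 10 were not called. These counts include Trim38 among the higher and Trim12a, Trim63 and Trim69 among the lower. Each passed the filter only through the group where it was high, so those calls add no separate support. Over all 18303 genes tested, 78.1% were called, 38.0% higher and 40.2% lower, so a call by itself was common. The median log2 fold change of elemental diet over saline was -0.39 for the tested members and -0.08 for all tested genes. At over 2-fold, 8 members were higher and 17 lower, against 19.1% and 23.7% of all genes. The groups did not overlap in 42 members, and in 81.0% of all genes. Without composition scaling the median of all genes shifted by -0.31 and the test called 9 members higher and 37 lower (5407 and 9265 of all genes). With upper quartile scaling it called 9 and 35 (5601 and 9051 of all genes).

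**Figure D1:**
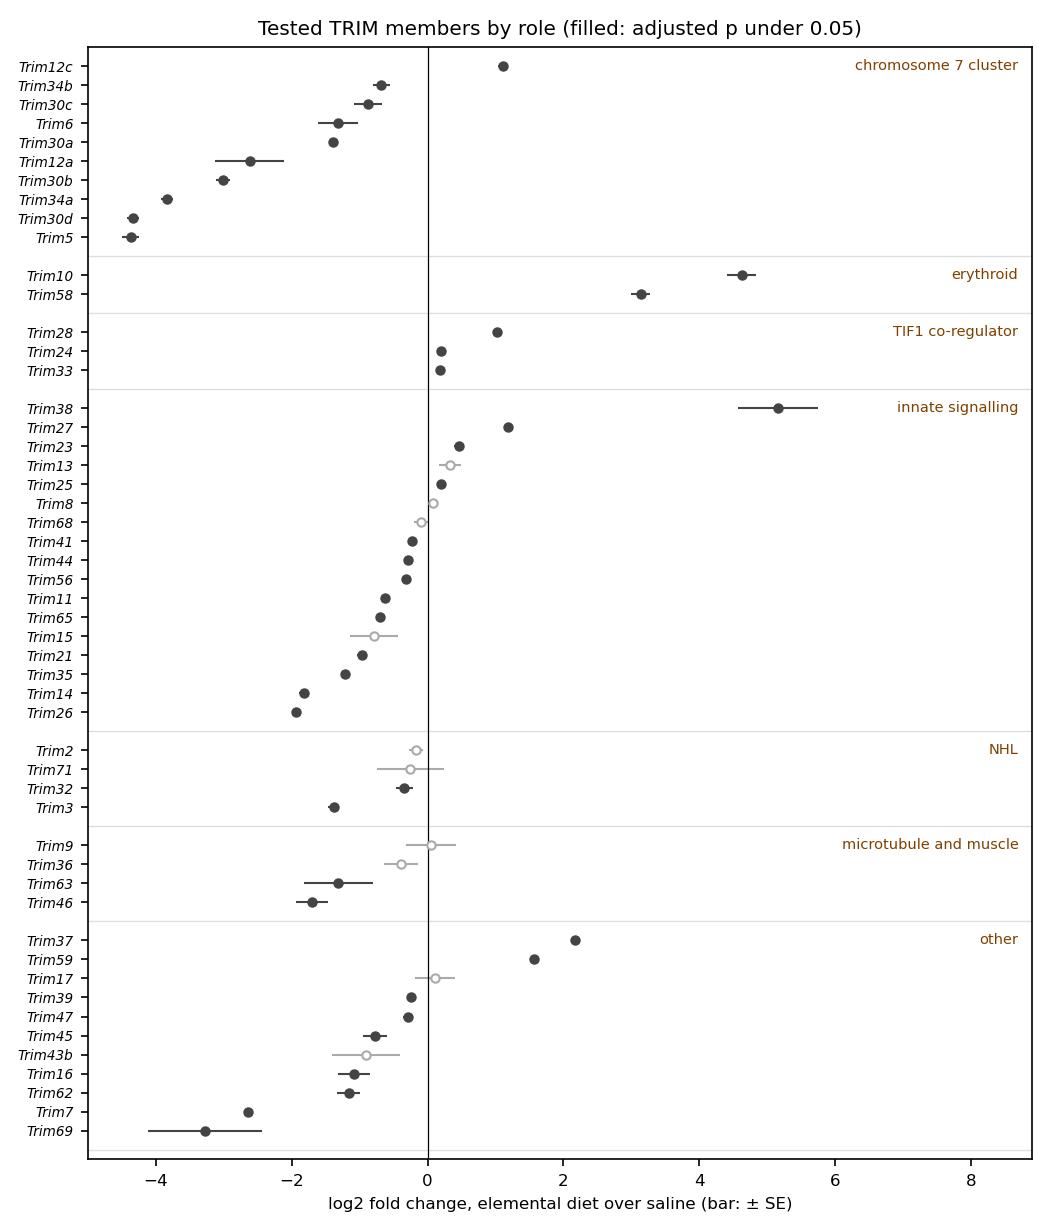
Fitted log2 fold change of elemental diet over saline for the 51 tested TRIM genes, grouped by role, with bars for ± SE (n = 3 libraries per group) and filled points for an adjusted p under 0.05. Of the 10 cluster genes 9 lie left of 0 and Trim12c right of it, and Trim38, Trim10 and Trim58 lie farthest to the right; Trim24, Trim25 and Trim33, at 0.19 each, turned negative without composition scaling.

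The make-up of the TRIM transcripts differed between the groups. Summed over the 68 members, TPM (the authors' length-scaled level) came to 1243 to 1307 with elemental diet and 1280 to 1326 with saline, ranges that overlap. As a share of all reads assigned to genes, which is not scaled by length, TRIM genes held 0.197% to 0.204% with elemental diet and 0.244% to 0.250% with saline, ranges that do not. The chromosome 7 cluster held 5.54% to 5.88% of that sum with elemental diet and 18.4% to 19.0% with saline. Trim10 held 21.0% to 22.9% with elemental diet and 0.804% to 1.46% with saline. By mean TPM the order with elemental diet ran Trim10 (279), Trim28 (207), Trim59 (115), Trim8 (69.5) and Trim27 (68.9), the last pair closer than their spread. With saline it ran Trim28 (135), Trim35 (104), Trim30a (93.1), Trim8 (84.8) and Trim11 (72.5), and Trim10 stood at rank 25 with 15.3 TPM.

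**Figure D2:**
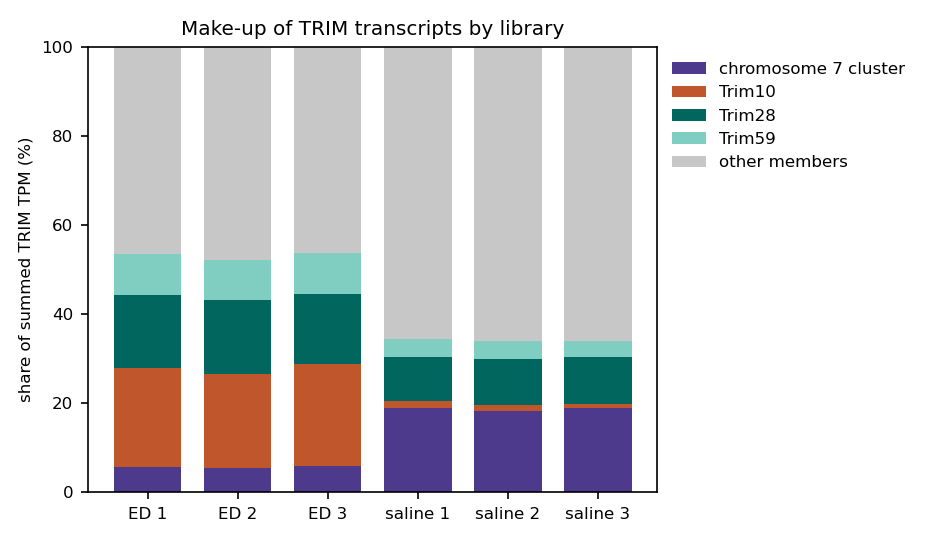
Share of the summed TPM of the 68 TRIM genes held by the chromosome 7 cluster, Trim10, Trim28, Trim59 and all other members, in percent, 1 bar per library. Trim10 fills 21.0% to 22.9% of the 3 elemental diet bars and at most 1.46% of the saline bars, where the cluster fills 18.4% to 19.0%.

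The cluster on chromosome 7 is a run of related TRIM genes. It holds the mouse relatives of primate TRIM5 (Trim5, Trim12a and Trim12c), Trim6, a pair of Trim34 genes and the Trim30 group. How closely they are related varied: over aligned coding bases Trim5 was 96.6% identical to Trim12c and 61.9% to Trim34a. The annotated coding sequences of Trim12a (891 bases) and Trim30b (609 bases) were shorter than those of the other cluster genes (1455 to 1539 bases). In mice Trim30a is known as an interferon-inducible brake on Toll-like receptor signalling. All 10 genes had enough reads to be tested, Trim12a through saline only. With elemental diet 9 were lower and 1, Trim12c, was higher, against 40.2% and 38.0% of all genes. Trim12a, among the 9, passed the filter only through the group where it was high, so its call adds no separate support. The median log2 fold change was -2.01 in the cluster and -0.29 in the 41 tested members outside it. No test of that gap was made, since the genes of a cluster are not independent of each other.

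Trim5 and Trim12c are close copies that moved in opposite directions. Trim5 (chr7:104263386-104288094, minus strand) had 1.65, 1.16 and 1.60 normalized CPM with elemental diet, against 30.9, 29.6 and 30.7 with saline (log2 fold change of -4.37 with an SE of 0.13, edgeR adjusted p = 8.15e-13). Trim12c, 50.7 kb away (chr7:104338754-104353362, minus strand), had 57.8, 60.3 and 64.3 CPM with elemental diet and 27.2, 28.3 and 29.3 with saline (log2 fold change of 1.11 with an SE of 0.06, edgeR adjusted p = 9.38e-10). In both genes the groups lay well apart, and within a group the libraries were close. The ratio of Trim12c to Trim5 in TPM was 44.5 to 64.6 with elemental diet and 0.650 to 0.743 with saline. Reads across exon junctions, as raw counts summed within each group, moved in the same directions. Trim5 had 0 such reads with elemental diet, which allows up to 3, and 143 with saline, and Trim12c had 597 with elemental diet and 448 with saline. Introns held 34.2% of the Trim5 reads with elemental diet and 10.6% with saline, and 12.5% and 32.0% of the Trim12c reads.

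The coding sequences of Trim5 and Trim12c, 1491 bases each in the GENCODE M21 annotation of GRCm38, were identical at 96.6% of positions. By exact match, most stretches of read length can still tell them apart: of the 75-base stretches in Trim5 transcripts, the read length here, 20.6% also occurred in transcripts of another gene, 12.4% in those of Trim12c. Stretches that differ at a single base count as distinct here, and the letters of these outbred mice may differ from the reference. Shown is the stretch of that length in which the pair differs most, within a single coding exon of each gene, coding bases 973 to 1047, with the 11 differing bases in capitals (chr7:104265814-104265888 for Trim5 and chr7:104341222-104341296 for Trim12c, both on the minus strand).
Trim5: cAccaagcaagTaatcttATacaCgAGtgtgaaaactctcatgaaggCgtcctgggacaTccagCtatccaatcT
Trim12c: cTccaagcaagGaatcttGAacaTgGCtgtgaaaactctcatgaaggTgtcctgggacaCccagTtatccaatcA
With unique reads alone, the log2 fold changes were -4.78 for Trim5 and 1.18 for Trim12c. Unique exon reads gave -5.02 for Trim5. Of their reads, 69.2% and 94.5% were unique with elemental diet and 89.3% and 87.7% with saline.

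The 250 bases before the annotated starts of Trim5 and Trim12c were near copies as well, with 219 identical positions in an aligned stretch of 230 (95.2%). The 120 bases nearest the start are given from RefSeq on GRCm38, with the core of the interferon-stimulated response element in capitals. It was searched on both strands as GAAA, any 2 bases and GAAA, and on the strand shown here it reads as its reverse complement, TTTC, 2 bases and TTTC. The stretches are chr7:104288107-104288226 for Trim5 and chr7:104353350-104353469 for Trim12c, both on the minus strand.
Trim5: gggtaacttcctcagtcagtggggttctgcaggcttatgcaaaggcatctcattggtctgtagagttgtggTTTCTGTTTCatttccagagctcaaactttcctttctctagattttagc
Trim12c: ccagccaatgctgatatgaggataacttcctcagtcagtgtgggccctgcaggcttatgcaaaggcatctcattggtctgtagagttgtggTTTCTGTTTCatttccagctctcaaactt
The same element begins 49 bases before the Trim5 start and 29 bases before the Trim12c start. So the genes that moved apart share these letters; a match is a description and not a binding site.

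Trim30d and Trim30a, another pair of close copies, both fell but by different amounts. Trim30d (chr7:104470014-104507849, minus strand) had 3.09, 2.89 and 3.44 CPM with elemental diet, against 66.4, 59.5 and 63.8 with saline (log2 fold change of -4.33 with an SE of 0.09, edgeR adjusted p = 3.26e-14). Trim30a (chr7:104409025-104465193, minus strand) had 66.9, 58.2 and 65.8 CPM with elemental diet, against 163, 173 and 164 with saline (log2 fold change of -1.39 with an SE of 0.06, edgeR adjusted p = 4.60e-11). The fall was thus 20.2-fold for Trim30d and 2.63-fold for Trim30a. Introns held 19.1% of the Trim30d reads with elemental diet and 40.3% with saline, and 48.0% and 34.6% of the Trim30a reads. Counted over exons alone, the log2 fold change was -4.01 for Trim30d and -1.84 for Trim30a. Their coding sequences were 90.2% identical over the aligned bases, only 5.41% and 4.98% of their transcripts' 75-base stretches occurred in another gene, and at least 95.3% of their reads were unique. The upstream stretches were again near copies, 92.6% identical over 244 aligned positions, and each holds the element, in capitals (chr7:104507850-104507969 for Trim30d and chr7:104465194-104465313 for Trim30a, both on the minus strand).
Trim30d: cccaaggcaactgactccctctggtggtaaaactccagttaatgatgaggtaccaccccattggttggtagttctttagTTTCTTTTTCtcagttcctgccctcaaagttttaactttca
Trim30a: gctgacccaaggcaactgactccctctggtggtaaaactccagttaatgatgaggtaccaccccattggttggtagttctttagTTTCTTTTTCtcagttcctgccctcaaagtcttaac
In the window from 250 bases before to 50 after the start, 6 of the 10 cluster genes held that element (Trim5, Trim12a, Trim12c, Trim30a, Trim30d and Trim34a). These matches are not separate finds, since most lie in copied sequence. Upstream, Trim12a was identical to Trim5 over 191 aligned positions, and Trim5 with Trim12c and Trim30d with Trim30a are the near copies given above. In Trim12a and Trim34a the element begins 10 bases after the start. Of the 43 other members with an entry, 2 did (4.65%), Trim21 and Trim26, and of all 32851 promoters 3.44%. For Trim30b the RefSeq start lies 11238 bases from the start in the files.

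Trim30b (chr7:104355382-104369884), with 4.96, 3.78 and 4.77 CPM with elemental diet and 38.2, 36.0 and 34.3 with saline, fell 8.05-fold. Trim30c (chr7:104382065-104400837) was scarcer, at 2.68, 2.52 and 1.84 CPM with elemental diet and 4.80, 3.78 and 4.34 with saline (log2 fold change of -0.87 with an SE of 0.21, edgeR adjusted p = 0.00164). The groups did not overlap in either gene. Of the Trim30c reads, 67.5% lay in introns with elemental diet and 48.3% with saline, and counted over exons alone its log2 fold change was -1.65.

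The Trim34 pair split in size as well. Trim34a (chr7:104244457-104262234, plus strand), which lies tail to tail with Trim5, 1.2 kb away, had 3.49, 3.61 and 4.03 CPM with elemental diet, against 56.6, 50.6 and 52.2 with saline (log2 fold change of -3.84 with an SE of 0.09, edgeR adjusted p = 9.70e-14). Trim34b (chr7:104329471-104336909) had 6.95, 6.46 and 7.62 CPM with elemental diet, against 11.2, 12.3 and 10.2 with saline (log2 fold change of -0.68 with an SE of 0.13, edgeR adjusted p = 0.000224). The coding sequences were 98.2% identical, 29.5% of the Trim34a stretches of read length also occurred in Trim34b, and 68.9% to 77.6% of the Trim34a reads were unique. Introns held 14.8% of the Trim34a reads with elemental diet and 47.2% with saline, and with unique exon reads its log2 fold change was -2.67. For Trim34b introns held 44.3% with elemental diet and 33.2% with saline, and with unique exon reads its log2 fold change was -1.05. The pair thus lay closer together in unique exon reads than in total reads. The antisense transcript Gm47248 overlaps Trim34a, with 0 reads with elemental diet and 227 with saline. The sources used here do not give the strand setting of the counting, so reads of the overlap cannot be told apart.

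The remaining pair of cluster genes was scarce, and Trim12a with elemental diet was near the limit of detection. Trim6 (chr7:104218793-104235152), which in human cells makes free ubiquitin chains that activate the kinase IKKε, had 0.698, 1.12 and 0.626 CPM with elemental diet and 1.96, 1.86 and 2.34 with saline (log2 fold change of -1.32 with an SE of 0.30). Trim12a (chr7:104299894-104315466) had 2, 7 and 2 reads with elemental diet and 27, 30 and 27 with saline. Introns held 89.3% of its saline reads, too few exon reads remained for a test, and it overlaps the antisense transcript Gm15133. Its log2 fold change of -2.62 became -3.38 without elemental diet replicate 2.

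**Figure D3:**
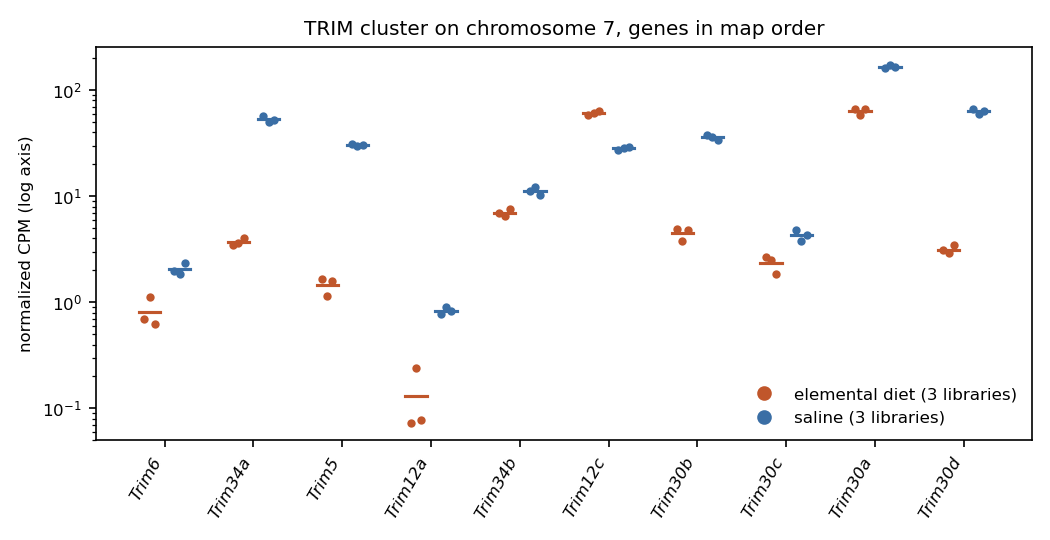
Normalized CPM on a log axis for the 10 genes of the chromosome 7 cluster in map order; each point is 1 library and each line a group mean (n = 3). The elemental diet points lie below the saline points in 9 genes and above them in Trim12c.

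The members of red cell precursors rose. Trim10, needed for terminal red cell differentiation in cell culture, had 257, 248 and 287 CPM with elemental diet and 13.5, 11.1 and 7.33 with saline (log2 fold change of 4.63 with an SE of 0.21, edgeR adjusted p = 7.40e-06). Trim58, which in late erythroblasts directs the loss of the motor protein dynein before the nucleus is expelled, had 22.1, 29.5 and 30.6 CPM with elemental diet and 3.21, 3.18 and 2.92 with saline (log2 fold change of 3.14 with an SE of 0.14, edgeR adjusted p = 7.04e-11). The groups lay far apart in both, and all reads of both genes were unique. The saline libraries differed by more in Trim10 than in Trim58. Saline replicate 1, highest in Trim10, also had the largest hemoglobin share of that group (0.484%, against 0.326% and 0.299%). Among the elemental diet libraries these did not go together. Replicate 3 was highest in Trim10 (287 CPM), while replicate 1 (257 CPM) had the largest hemoglobin share (3.57%, against 3.36% in replicate 3). The ratio of Trim10 to Trim58 reads was 8.42 to 11.6 with elemental diet and 2.51 to 4.22 with saline. Beside these values, all 14 tested erythroid markers were higher, with a summed level of 45160 to 46340 CPM with elemental diet and 2937 to 4639 with saline, and none of them was at 0. Klf1, the master activator of red cell genes, was 55.3-fold higher and the receptor gene Epor 13.4-fold. Their part in the rise of Trim10 and Trim58 was not tested.

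The 200 bases before the Trim10 start are given because they hold a letter match to the GATA factors of red cells. Both forms of that motif, AGATAA and TGATAA, were searched on either strand, and the match, in capitals, begins 163 bases before the start (chr17:36869374-36869573, plus strand, RefSeq on GRCm38).
Trim10: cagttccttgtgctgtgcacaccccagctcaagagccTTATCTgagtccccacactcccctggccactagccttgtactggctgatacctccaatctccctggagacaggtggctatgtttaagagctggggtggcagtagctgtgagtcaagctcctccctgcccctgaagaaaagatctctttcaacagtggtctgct
The window of Trim58 held neither form, while 18.6% of all 32851 promoters held at least 1.

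Trim10 lies in the major histocompatibility complex on chromosome 17, within a second group of TRIM genes that went different ways. Trim26 (chr17:36837134-36859398), a ligase reported to act on interferon signalling, and Trim10 (chr17:36869574-36877833), both on the plus strand, lie 10.2 kb apart. Trim26 had 39.0, 32.7 and 35.1 CPM with elemental diet, against 139, 133 and 138 with saline (log2 fold change of -1.94 with an SE of 0.06, edgeR adjusted p = 2.96e-12). Trim10 was thus 24.7-fold higher and Trim26 3.84-fold lower, and at least 99.9% of their reads were unique. Trim15, which lies between them, had 15, 26 and 14 reads with elemental diet and 32, 39 and 44 with saline and was not called (adjusted p = 0.0541). All its reads were unique, yet in the fit to unique reads of all genes it was called lower (adjusted p = 0.0374), as it was without elemental diet replicate 2 (0.0314) or saline replicate 1 (0.0454), with upper quartile scaling (0.0134), without composition scaling (0.0111) and with the 1 CPM filter (0.0296). With total exon reads (log2 fold change -0.29, adjusted p = 0.589) or unique exon reads (-0.32, 0.540) Trim15 was not called. Introns held 45.5% of its reads with elemental diet and 64.3% with saline, and its junction reads were 9 and 2. Trim39 fell by 0.25 on the log2 scale, and Trim31 and Trim40 had at most 6 reads in any library.

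The transcriptional co-regulators of the TIF1 group rose or barely moved. Trim28 (KAP1), which KRAB zinc finger proteins recruit to silence repeats and genes, had 332, 343 and 337 CPM with elemental diet, against 163, 167 and 169 with saline (log2 fold change of 1.02 with an SE of 0.04, edgeR adjusted p = 5.99e-11). Trim24 and Trim33 (TIF1γ, which zebrafish need to make red cells) were called higher by 0.19 each, but without composition scaling both were at -0.12, so neither has a settled direction. Trim24 also lost its call without saline replicate 1 (adjusted p = 0.0535) or 2 (0.0641). It had 64.7, 66.7 and 73.3 CPM with elemental diet and 58.1, 57.5 and 63.3 with saline. Trim66, the fourth of the group, had 3 to 18 reads a library and was not tested. Of 13 partners of Trim28 in silencing, 8 were higher and 4 lower (median log2 fold change 0.83), where 38.0% of all genes tested were higher and 40.2% lower (median -0.08). Uhrf1, which brings DNA methylation to newly copied DNA, was 25.9-fold higher and the heterochromatin protein gene Cbx5 6.03-fold higher, and the remodeller gene Chd3 was 3.64-fold lower.

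Of 19 members that act on innate immune signalling, 17 were tested, with 4 higher (23.5%), 9 lower (52.9%) and 4 not called, against 38.0% and 40.2% of all genes tested. After Trim26 the largest falls were those of Trim14, an adaptor at the mitochondrial protein MAVS that lacks a RING, and Trim35. Trim14 had 16.8, 19.0 and 17.1 CPM with elemental diet and 63.7, 61.6 and 62.5 with saline, a 3.55-fold fall. Of its reads, 73.8% with elemental diet and 77.1% with saline lay in introns, and it overlaps the coding gene Nans. Trim35 had 70.9, 73.4 and 70.3 CPM with elemental diet and 164, 165 and 171 with saline, a 2.33-fold fall. Trim21, the cytosolic receptor for antibody bound to virus, fell 1.96-fold, and Trim65, a ligase for the RNA sensor MDA5, 1.62-fold, though only 24.8% of its reads with elemental diet and 25.2% with saline were unique, and it overlaps Trim47. Trim11, Trim56, Trim44 and Trim41 fell by 0.62, 0.31, 0.30 and 0.23 on the log2 scale.

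Among the same signalling members Trim38 and Trim27 rose. Trim38, which in mouse macrophages limits Toll-like receptor signalling, had 43, 53 and 61 reads with elemental diet and 0, 1 and 4 with saline (log2 fold change of 5.15 with an SE of 0.59, edgeR adjusted p = 2.08e-06). Trim38 passed the filter only through elemental diet, the group where it was high, so its call adds no separate support. It was the largest fitted rise in the family, described after its value was seen, since its mean level lies below the 1 CPM that the naming rule asks. With so few saline reads its size is loose: 4.56 without saline replicate 1 and 6.66 without saline replicate 3. Trim27, a ligase with roles in endosomal sorting and in signalling, had 150, 155 and 156 CPM with elemental diet and 70.5, 66.8 and 66.6 with saline, a 2.26-fold rise. Trim23, whose C-terminal domain is an ARF GTPase, had 40.9, 40.9 and 42.0 CPM with elemental diet and 29.6, 31.6 and 29.0 with saline (log2 fold change 0.46). Trim25, the ligase that activates the RNA sensor RIG-I, was called higher by 0.19, and was at -0.12 without composition scaling. Trim8, among the 4 most abundant members by TPM, had 85.7, 93.8 and 95.6 CPM with elemental diet and 87.7, 84.7 and 87.0 with saline, overlapping groups, and was not called with TMM scaling (log2 fold change of 0.09 with an SE of 0.05, edgeR adjusted p = 0.160). It was called lower without composition scaling (-0.22) and with upper quartile scaling (-0.19), and higher without elemental diet replicate 1 (0.15, adjusted p = 0.0089). With RLE scaling it was called higher (0.13, adjusted p = 0.0488). Trim68 and Trim13 were not called. Trim68 was called lower with upper quartile scaling (adjusted p = 0.00953) and without composition scaling (0.00596), and Trim13 higher without elemental diet replicate 3 (0.0495) and with RLE scaling (0.0496).

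Genes of the pathways around these ligases went both ways. Of 26 genes that sense nucleic acids or relay the signal, 15 were lower and 8 higher (median log2 fold change -0.50). Tlr9, a receptor for DNA in B cells and plasmacytoid dendritic cells, was 5.83-fold lower, Tmem173 (STING) 4.26-fold and Ddx58 (RIG-I) 3.12-fold. Among the rises, chosen after values were seen, Mb21d1 (cGAS), the DNA sensor upstream of STING, was 5.53-fold higher. Of 26 type I interferon stimulated genes, 15 were lower, 7 higher and 4 not called (median -0.71). The nucleic acid sensor gene Zbp1 was 4.61-fold lower and Parp14 2.39-fold. Of the rises, again chosen after values were seen, Cmpk2, a mitochondrial nucleotide kinase, was 7.08-fold higher and Rsad2 (viperin), an antiviral enzyme, 3.55-fold. Of 14 E2 enzymes that RING ligases use, 11 were higher and 3 lower (median 0.62), led by Ube2e3 and Ube2l6, 4.71-fold and 3.91-fold higher, while Ube2d1 was 3.03-fold lower. Over all genes tested, 38.0% were higher and 40.2% lower, with a median of -0.08.

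Markers of lymphoid cells were lower, as were 9 of the 10 cluster genes, while the signalling members went both ways. All 10 B cell markers were lower, with a summed level of 1933 to 2048 CPM with elemental diet and 15540 to 15960 with saline. All 10 T cell markers were lower, at 82.9 to 91.9 CPM with elemental diet and 617.6 to 794.7 with saline. Of 12 markers of macrophages and dendritic cells 8 were lower and 2 higher, at 458 to 556 CPM with elemental diet and 1011 to 1229 with saline. The 2 that were higher, Xcr1 (4.44-fold) and Siglech (1.97-fold), are dendritic cell markers. None of these markers was without reads in either group. All 9 tested of 10 neutrophil markers were higher, at 237 to 275 CPM with elemental diet and 10.4 to 12.9 with saline. Of all genes tested, 38.0% were higher and 40.2% lower. The part of these cells in the changes of the TRIM genes was not tested.

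Outside these groups the largest rises were in Trim37 and Trim59. Trim37, which keeps the number of centrioles in check, had 118, 130 and 138 CPM with elemental diet and 28.7, 27.8 and 29.1 with saline (log2 fold change of 2.17 with an SE of 0.06, edgeR adjusted p = 8.13e-13). Trim59, a membrane-anchored member, had 151, 146 and 159 CPM with elemental diet and 52.3, 53.0 and 48.5 with saline, a 2.96-fold rise. Beside them, all 10 markers of dividing cells were higher, with summed levels of 4450 to 5218 CPM with elemental diet and 151 to 158 with saline. Their part in the rise of these genes was not tested.

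The largest fall outside the cluster among well expressed members was that of Trim7, which binds glycogenin, the primer of glycogen synthesis. Trim7 (chr11:48826140-48852209) had 23.6, 20.9 and 22.8 CPM with elemental diet, against 147, 142 and 131 with saline (log2 fold change of -2.64 with an SE of 0.06, edgeR adjusted p = 1.61e-13). Only 29.5% of its reads with elemental diet and 30.2% with saline were unique, and with those alone the log2 fold change was -2.71. It overlaps the coding gene Gm12184 and the transcript Gm16170. Trim62 had 3.34, 3.13 and 2.89 CPM with elemental diet and 5.92, 7.84 and 7.26 with saline, and fell by 1.16 on the log2 scale. Trim16 had 1.36, 1.70 and 1.60 CPM with elemental diet and 2.66, 4.02 and 3.20 with saline, and fell by 1.08. Trim45 fell by 0.78 and Trim47 by 0.29. Trim17 and Trim43b were not called; Trim43b was called lower without elemental diet replicate 1 (-1.37, adjusted p = 0.0473), with upper quartile scaling (0.0462) and without composition scaling (0.0415). Trim69 had 4, 0 and 0 reads with elemental diet and 12, 16 and 23 with saline and was called lower, but at most 9.80% of those reads were unique, too few for a test. Without elemental diet replicate 1 all its reads in that group were gone, so no size is given.

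**Figure D4:**
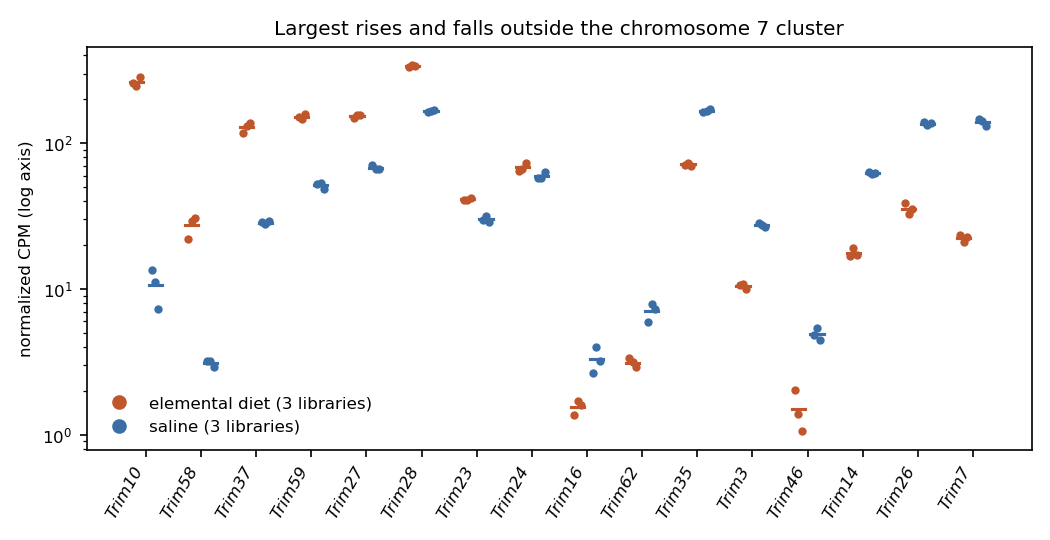
Normalized CPM on a log axis for the 8 largest rises and the 8 largest falls among called members outside the cluster that averaged 1 CPM or more and whose groups stood apart, ordered by log2 fold change; points are libraries and lines group means (n = 3). Trim10 and Trim7 stand at the ends; Trim24, the smallest rise, turned negative without composition scaling.

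Members with an NHL domain, which binds RNA or protein, were lower or not called. Trim3, high in brain, had 10.7, 10.9 and 9.93 CPM with elemental diet and 28.6, 27.3 and 26.4 with saline, a 2.61-fold fall. Trim32, mutated in a limb-girdle muscular dystrophy, had 241, 338 and 224 reads with elemental diet and 392, 409 and 433 with saline and was called lower, with a log2 fold change of -0.34 (adjusted p = 0.0273), although the groups overlap in normalized CPM. It overlaps the gene Astn2, and only 2.37% of its reads with elemental diet and 4.21% with saline were unique, with a log2 fold change of -1.19 in those alone. The call was lost without elemental diet replicate 1 or 3 or saline replicate 2 or 3 (adjusted p 0.0586 to 0.117), and with RLE scaling (0.0503) or DESeq2 (0.102). Trim2 and Trim71 were not called; Trim2 was called lower without saline replicate 1 (-0.26, adjusted p = 0.0437), with total exon reads (adjusted p = 0.0184), with unique exon reads (0.00923), with upper quartile scaling (0.00144) and without composition scaling (0.00088).

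Members of microtubules and muscle were scarce. Trim46, which organises the microtubules at the base of the axon, had 2.02, 1.39 and 1.06 CPM with elemental diet and 4.82, 5.38 and 4.43 with saline, a 3.26-fold fall. Trim63 (MuRF1), a ligase of muscle wasting, had 8, 6 and 3 reads with elemental diet and 18, 12 and 22 with saline and was called lower (adjusted p = 0.0315). That call was lost without elemental diet replicate 2 or 3 or saline replicate 1 or 3 (adjusted p 0.0703 to 0.134). It was also lost with no filter (adjusted p = 0.0609) and with DESeq2 (0.134). Trim9 and Trim36 were not called, though Trim36 was called lower with upper quartile scaling (adjusted p = 0.0232) and without composition scaling (0.0177). In all, 17 members were not tested, none with more than 23 reads in a library, and Trim60 and Trim61 had no read in any library.

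Counting unique reads in place of total reads left the calls of 49 of the 51 tested members as they were, the exceptions being Trim15 and Trim69. Counting exon reads left 45 as they were. For Trim13, of whose reads 12.9% with elemental diet and 21.2% with saline were unique, the log2 fold change was 0.33 with total and -0.44 with unique reads, called in neither, and 0.44 with exon reads, where it was called higher.

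**Figure D5:**
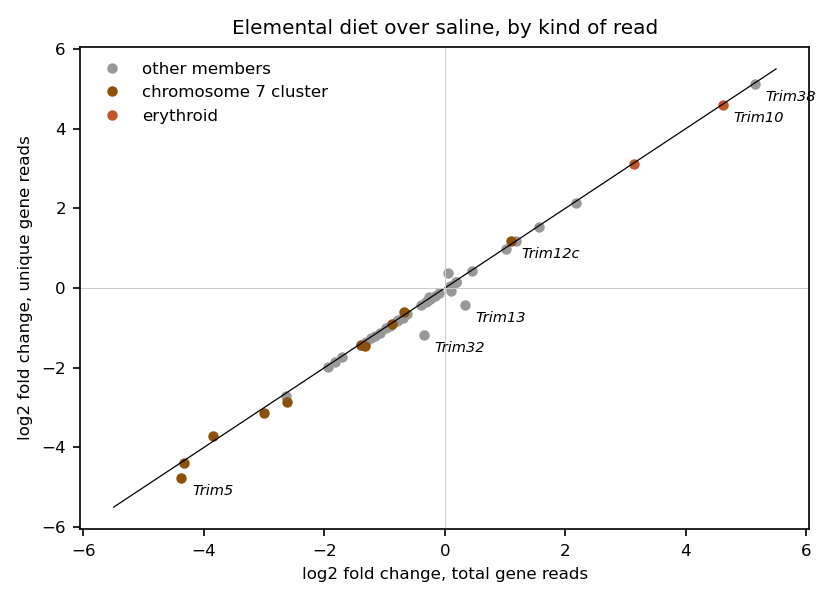
Log2 fold change of elemental diet over saline from unique gene reads against that from total gene reads, 1 point per tested member with enough unique reads; the line marks equal values. Points of the cluster and of Trim10 and Trim58 lie near the line (Trim5 at -4.37 and -4.78), and Trim32 and Trim13 lie below it.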

How the data were processed

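Oligo-dT selected RNA of 3 libraries per group was sequenced as 75 bp paired reads, per the labels' protocols. The submitters' processing notes name GRCh37 and GRCm38; the sources used here do not give the aligner, counter or strand setting. The authors deposited, per gene and library, whole-number counts of total, unique, exon, intron and junction reads, and TPM, per the file headers. Total gene counts were fitted with edgeR 4.0.16 (TMM, filterByExpr, robust quasi-likelihood test, R 4.3.3) over all genes, with Benjamini-Hochberg adjustment; 18303 genes were tested. DESeq2 1.42.0, other scalings, filters and read classes were alternatives. Library totals were 29053287 to 33073125 counts. No library pair agreed within sampling noise. On simulated counts with 200 changed genes the fit recovered 57.9%, 71.5% and 92.1% at 1.5, 2 and 4-fold, and 9.76% of its calls were false. The simulation changed 200 of 18303 genes, in random directions, while 78.1% were called in the data. Its rates therefore need not hold for the data.

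Named with values were the cluster, Trim10 and Trim58, the 8 largest rises and 8 largest falls outside the cluster among called members that averaged 1 CPM or more and whose groups stood apart, the 4 members with the highest mean TPM, and members called differently with unique reads. The members and lists were chosen with earlier results of these data known; the roles and the coding sequence comparison, which replaces a planned comparison of proteins, were added after values were seen. Of the members, 53 matched a RefSeq promoter (GRCm38). Identity was computed from GENCODE M21 transcripts. From each list the 3 genes with the smallest p were to be named; some of them are not reported here.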

Additional observations from a re-analysis of the deposited data

How the results depend on the processing

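None of 17 alternative fits moved the count of higher or lower TRIM genes by over 1.5 times. A 2-fold rule on top of the test left 8 higher and 17 lower in place of 12 and 29, and 7 in place of 9 lower in the cluster, where Trim30c and Trim34b lost their calls. With total exon reads both fell over 2-fold, with log2 fold changes of -1.65 and -1.06. Leaving out each library gave 11 to 13 higher and 27 to 30 lower, with 9 of the cluster lower each time, and DESeq2 gave 14 and 27. All 10 cluster members, and 36 of the 51 tested members, kept call and direction in each of the 17 fits that gave a value for them. Direction turned for members near 0, and the cause was not tested. With upper quartile and with no composition scaling, log2 fold changes were -0.083 and -0.12 for Trim33, -0.079 and -0.12 for Trim24, -0.082 and -0.12 for Trim25, -0.17 and -0.20 for Trim17, -0.22 and -0.26 for Trim9, and -0.19 and -0.22 for Trim8. Unique reads gave -0.062 for Trim17 and -0.44 for Trim13, and unique exon reads -0.089 for Trim13 and -0.019 for Trim8. Leaving out 1 library gave -0.62 to 0.12 for Trim71, -0.20 to 0.35 for Trim17 and -0.20 to 0.31 for Trim9. With the replicate number as a block, 12 members were higher, 28 lower (Trim63 lost its call, adjusted p = 0.0603) and 14241 of all genes called; same-numbered libraries did not deviate together in all pairs (correlations 0.117, -0.00799 and 0.0578), and elemental diet replicate 2 correlated best with saline replicate 3, so the numbers were not taken as pairs. Members with few reads (Trim12a, Trim38, Trim63, Trim69) are limited by depth.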

Other observations

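The neighbourhood of the chromosome 7 cluster was quiet. Of the 13 gene rows that are no TRIM member within 100 kb on either side, 9 were olfactory receptor genes, which together held 34 reads with elemental diet and 55 with saline. Inside the cluster, 5 further rows held 91 reads with elemental diet and 255 with saline. All 91, and 28 of those with saline, belonged to Gm15133, antisense to Trim12a, and the other 227 to Gm47248, which overlaps Trim34a.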
